A study of Mus musculus with 39 samples.

Results

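The 10 genes described here are 7 suppressors of cytokine signaling, *Socs1* to *Socs7*, their relative *Cish*, and the serine/threonine kinases *Pim1* and *Pim3*. They were chosen by symbol from the 47643 genes listed in each of 2 count tables, and every one of the 10 was listed once and passed the filter on low counts in every comparison. The epiblast table held 35 RNA-seq libraries, each made from a single hand-dissected mouse epiblast of embryonic day 5.5 (2 WT, 4 *Stat3* null), E6.5 (9 WT, 8 null) or E7.5 (9 WT, 3 null). The second table held 4 epiblast stem cell (EpiSC) lines, null lines 2 and 6 and WT lines 8 and 13, each read as 1 library. EpiSCs are self-renewing lines derived from the postimplantation epiblast, and these were grown on fibronectin in N2B27 medium with FGF2, Activin A and the tankyrase inhibitor XAV-939. All embryos came from crosses of *Stat3* heterozygous mice on the CD1 background and were genotyped on extraembryonic ectoderm. The null allele is carried in every cell of the embryo and has a neomycin resistance gene in place of part of the *Stat3* exons, so reads of the other exons still count toward *Stat3*.

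On GRCm38, with GENCODE vM21 positions, *Socs2* (ENSMUSG00000020027.18) spans chr10:95385362-95417180 and *Socs3* (ENSMUSG00000053113.3) chr11:117966079-117970047, both on the minus strand. *Pim1* lies at chr17:29490753-29496112 and *Pim3* at chr15:88862186-88865726, on the plus strand, and *Cish* at chr9:107296026-107302784, also on the plus strand. All 10 are protein-coding genes and values are sums over their exons.

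Cytokine receptors of the gp130 type signal through JAK kinases, which phosphorylate STAT3, and STAT3 then enters the nucleus and activates target genes. *Socs3* is the classic feedback target of this route: its protein binds gp130 and JAK and shuts them off, while *Socs1* acts directly on JAK kinases, and *Cish* and *Socs2* restrain receptors that signal through STAT5, such as the growth hormone receptor. *Socs4* to *Socs7* have longer N-terminal regions and are less tied to cytokine feedback. PIM kinases are active without an upstream kinase, so their activity follows the amount of protein made, and *Pim1* and *Pim3* are known STAT targets that promote survival and growth in many cell types.

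STAT dimers bind the palindrome TTCNNNGAA. Promoter sequence of RefSeq (GRCm38.p6) was at hand for *Socs1*, *Socs3*, *Socs4*, *Cish*, *Pim1* (2 start sites) and *Pim3*, and the letters were searched in the 250 bases before each RefSeq start, where the palindrome reads alike on both strands. They occurred in 1 of these 7 windows, that of *Socs3*, and in 2306 of the 32851 mouse promoter windows (7.02%). The stricter form TTCCNGGAA, which the search above includes, was in none of the 7 windows and in 0.913% of all. The window of *Socs3*, chr11:117969367-117969616 on the minus strand, lies within the gene span given above because RefSeq and GENCODE place the start differently, and is printed because it holds the match, in capitals, 154 bases before the start. That of *Cish*, chr9:107296409-107296658 on the plus strand, likewise lies within the GENCODE span. It is printed for comparison with a second cytokine-feedback gene and holds no match. Of the 2 *Pim1* windows, 1 lies within the gene too. Sequence before the GENCODE starts of *Socs3* and *Cish* was not searched, so the absence of a match holds for these windows only. A match here is a string of letters and says nothing of binding, which was not measured.
Socs3: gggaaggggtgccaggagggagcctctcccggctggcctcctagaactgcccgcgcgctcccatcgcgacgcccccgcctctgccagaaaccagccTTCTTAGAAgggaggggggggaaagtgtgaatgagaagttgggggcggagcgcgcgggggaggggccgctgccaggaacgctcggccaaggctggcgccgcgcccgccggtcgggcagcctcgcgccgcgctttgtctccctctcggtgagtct
Cish: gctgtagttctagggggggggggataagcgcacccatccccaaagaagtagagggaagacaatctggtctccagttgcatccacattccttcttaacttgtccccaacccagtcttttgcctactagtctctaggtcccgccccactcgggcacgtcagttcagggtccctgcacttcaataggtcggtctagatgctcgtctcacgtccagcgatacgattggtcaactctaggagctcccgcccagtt

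Total counts lay between 22941210 and 79013960 in the epiblast libraries and between 63445877 and 127583699 in the EpiSC libraries. Levels are given as CPM (counts scaled to library size with TMM factors), and levels of different genes are compared only as RPKM, which divides CPM by the exon length of the gene. *Stat3* itself checked the labels: its mean was 16.9 CPM in null against 44.8 in WT at E5.5, 4.37 against 13.3 at E6.5, 1.34 against 13.6 at E7.5 and 3.32 against 20.5 in EpiSCs. The log2 fold change was -1.41 (adjusted p 0.999), -1.60 (0.334), -3.31 (0.00808) and -2.62 (0.00706) in that order, by edgeR. Null and WT libraries did not overlap in *Stat3* at E5.5, E7.5 or in EpiSCs, and at E6.5 5 of 8 null libraries lay below every WT library. A few libraries stood apart in marker genes: null 1 at E5.5 held 0.673 CPM of the epiblast gene *Pou5f1* against at least 100 in the other E5.5 libraries, null 1 at E6.5 had 1082 CPM over 10 extraembryonic ectoderm genes against at most 105 in the other E6.5 libraries, and WT 3 at E6.5 had 6024 CPM over 12 visceral endoderm genes against at most 1704 in the other E6.5 WT libraries, although 3 of the E6.5 null libraries also held 4482 to 7257. These endoderm genes, which an epiblast should lack, summed to 6222 to 12250 CPM in the other 5 libraries of E5.5. Null 1 of E5.5 held 45.0 CPM of them and 1655 CPM over the 10 extraembryonic ectoderm genes, against at most 625 CPM in the other E5.5 libraries. It is counted among the null epiblasts by its label only. WT 3 at E7.5 had 5927 CPM over 7 epiblast genes, where the other 8 E7.5 WT libraries had 1093 to 3013 and the 3 null libraries 4369 to 5993. Where leaving out one of these 4 libraries changed a result on a member, the value without it is given.

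*Socs2* was the 1 member that edgeR called in any comparison run on all libraries. Null epiblasts were not tested between stages, nor EpiSCs against epiblasts. In WT epiblasts it rose from E5.5 to E6.5 and fell from E6.5 to E7.5, and at E7.5 it was higher in null than in WT epiblasts. At E5.5 the 4 null epiblasts held 21.1, 18.8, 24.2 and 23.3 CPM and the 2 WT epiblasts 11.7 and 28.1 CPM. At E6.5 the null epiblasts ran from 11.1 CPM through a median of 52.9 to 65.0, and the WT epiblasts from 39.8 through 71.6 to 82.1. At E7.5 the 3 null epiblasts held 71.1, 73.6 and 62.9 CPM, and the WT epiblasts ran from 18.5 through a median of 22.9 to 62.9. The E7.5 groups met only at WT 3, which was level with null 3, and the other 8 WT epiblasts reached no higher than 28.6 CPM.

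**Figure D1:**
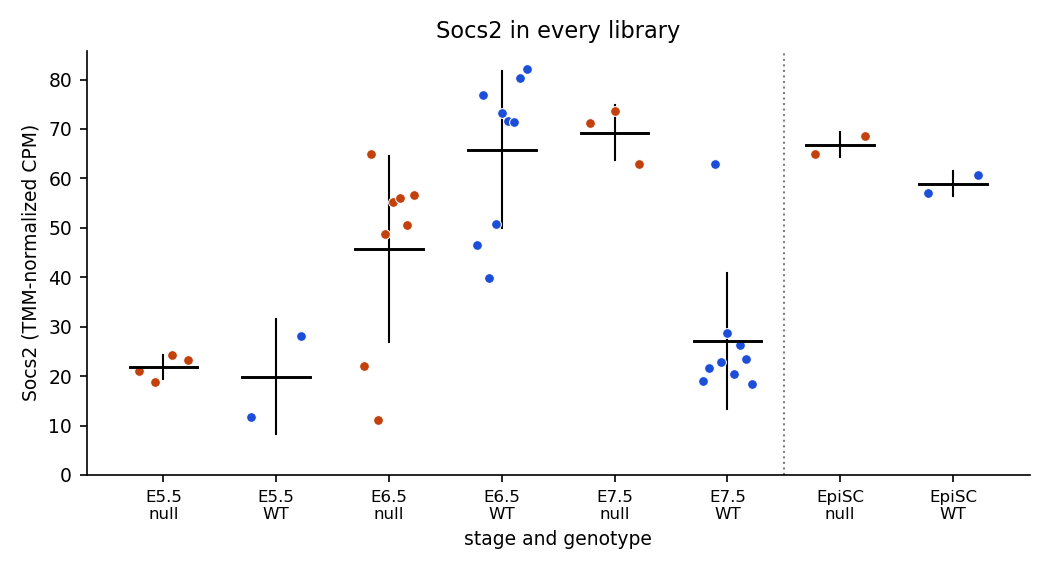
*Socs2* level (TMM-normalized CPM, y axis) in every library, by stage and genotype (x axis; null in orange, WT in blue). Horizontal lines are group means and vertical lines the SD; the dotted line separates the EpiSC table, which was normalized apart. The 3 null epiblasts at E7.5 sit between 62.9 and 73.6 CPM, within the range of the E6.5 WT epiblasts, while 8 of 9 E7.5 WT epiblasts sit between 18.5 and 28.6.

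A gene was called when edgeR's quasi-likelihood test gave an absolute log2 fold change over 1 and a Benjamini-Hochberg adjusted p under 0.05 over all genes tested. From E5.5 to E6.5 in WT epiblasts, *Socs2* was 1 of 10 members called, beside 5.15% of all genes, with a log2 fold change of 1.75 (SE 0.363, adjusted p 0.0106). From E6.5 to E7.5 in WT epiblasts it was again the 1 member of 10 called, beside 8.83% of all genes, with a log2 fold change of -1.30 (SE 0.22, adjusted p 0.000266). Of the 9 E7.5 WT epiblasts, 8 lay below all 9 E6.5 WT epiblasts, and WT 3 did not. The rise rested on 2 E5.5 WT epiblasts: without WT 1 at E5.5 it was 1.20 on the log2 scale with an adjusted p of 0.202. The fall was called whichever library was left out (log2 fold change -1.56 to -1.24). The marker genes moved along the same WT series: the visceral endoderm sum was 6222 to 7458 CPM at E5.5 and had a median of 202 CPM at E6.5 and 1792 CPM at E7.5, and the epiblast sum was 2540 to 3873 CPM at E5.5 with medians of 6034 and 1909 CPM after that. Their part in the rise and the fall was not tested.

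Between genotypes at E7.5, *Socs2* was 1 of 10 members called and 1.17% of all 19680 genes tested were called, most of them (215 of 231) lower in null. *Socs2* was among the 16 genes called higher in null, at 69.2 ± 5.6 CPM (SD, n = 3) against 27.1 ± 13.8 CPM (n = 9), a log2 fold change of 1.38 (SE 0.301, adjusted p 0.0405). This call was near its threshold. Leaving out any 1 of the 3 null libraries or any 1 of the 8 WT libraries other than WT 3 moved the adjusted p to between 0.0577 and 0.177 at a log2 fold change of 1.32 to 1.45, and leaving out WT 3 gave 1.64 with an adjusted p of 2.36e-06. Without WT 3 the WT mean was 22.6 ± 3.52 CPM (n = 8).

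The marker sums of the E7.5 libraries moved with the same contrast. The 12 visceral endoderm genes summed to 63.7 to 322 CPM in null and 467 to 4563 CPM in WT, and with their sum as a covariate the *Socs2* log2 fold change was 0.52 (SE 0.437, adjusted p 0.9997). The 10 extraembryonic ectoderm genes summed to 34.8 to 48.6 CPM in null and 44.0 to 186 CPM in WT, and with their sum as a covariate it was 0.55 (SE 0.342, adjusted p 1). In WT the extraembryonic ectoderm sum came largely from *Cdx2* (median 63.7 CPM) and *Ets2* (47.4), while *Elf5* was at 0 in 7 of 9 libraries. That sum may therefore not measure this tissue at E7.5. The visceral endoderm sums of the null and WT libraries did not overlap, so that their effect and that of genotype cannot be told apart. Without WT 3, the 7 epiblast genes did not overlap between the genotypes either, and their part in the result was not tested. In these bulk libraries fewer cells of a type and less RNA per cell cannot be told apart either.

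The genotype difference in *Socs2* was then compared between stages. At E6.5 its mean was 45.7 ± 18.8 CPM in null (n = 8) and 65.8 ± 15.8 CPM in WT (n = 9), a log2 fold change of -0.52 (SE 0.259, adjusted p 0.633). The visceral endoderm sum at E6.5 had a median of 989 CPM in null and 202 CPM in WT, and the *Socs2* value was -0.28 with that sum as a covariate and -0.23 with the extraembryonic ectoderm sum. A term for the change in genotype effect between E6.5 and E7.5 tested this directly and called *Socs2* alone among the 10 members, beside 0.443% of all genes, at 1.88 on the log2 scale (SE 0.429, adjusted p 0.0441). The interaction lost its call in 19 of 29 fits that left out 1 library (adjusted p 0.0507 to 0.185) while its size stayed between 1.73 and 2.14 over all 29. Set against the WT epiblasts of E6.5, the null epiblasts of E7.5 differed by 0.06 on the log2 scale in *Socs2* (SE 0.201, adjusted p 0.988), and in that comparison no member was called, beside 0.162% of all genes. The E7.5 null and E6.5 WT libraries also enter the comparisons above, so these values are not independent of them.

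Across the 35 epiblasts the levels of *Socs2* ranked much as those of the epiblast genes *Pou5f1* (Spearman's rho 0.861) and *Zic2* (0.856) and of *Prps1* (0.849), which makes a nucleotide precursor. These are the 3 highest values among 14181 genes with a mean count of at least 50, described without a test, since libraries share stage and tissue makeup. By Pearson's correlation of log2 CPM the highest were *Nudcd1* (0.869), *Prps1* (0.864) and *Knop1* (0.863). Within stages the rho of *Socs2* with *Pou5f1* was 0.771 over the 6 libraries of E5.5, 0.873 over the 17 of E6.5 and 0.49 over the 12 of E7.5. Among the 9 E7.5 WT epiblasts alone it was -0.183.

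**Figure D2:**
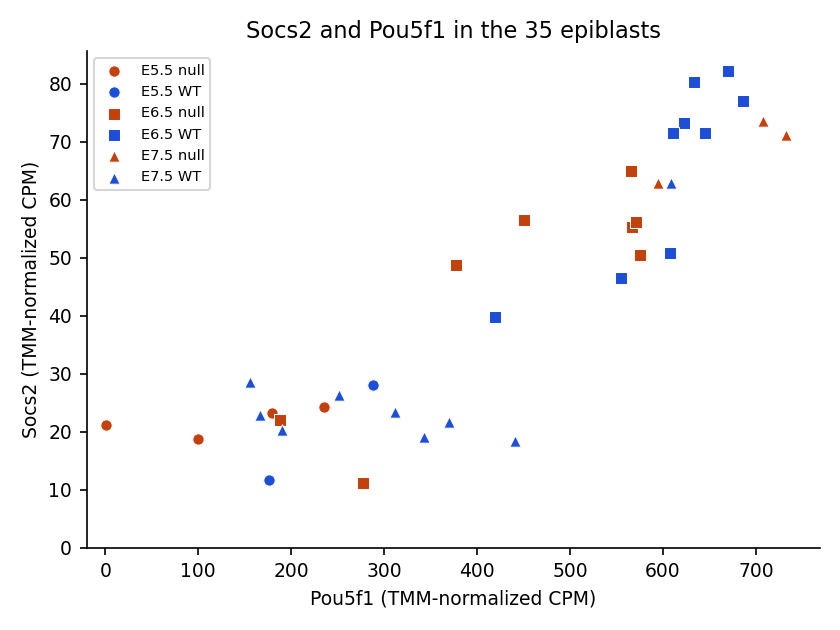
*Socs2* (y axis) against the epiblast gene *Pou5f1* (x axis), both in TMM-normalized CPM, with 1 point for each of the 35 epiblasts (null in orange, WT in blue; circles E5.5, squares E6.5, triangles E7.5). The 3 E7.5 null epiblasts lie with the E6.5 WT epiblasts at the upper right, and 8 of 9 E7.5 WT epiblasts lie below the 3 null epiblasts on both axes.

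*Socs3*, the feedback gene, was low at every stage, and its mean was lower in null than in WT at each of them. At E5.5 the 4 null epiblasts held 1.82, 2.95, 1.39 and 3.52 CPM and the 2 WT epiblasts 11.1 and 4.07 CPM. The E5.5 groups did not overlap in 2 of the 10 members, *Socs3* and *Socs1*, beside 11.7% of all genes, and the 2 WT values of *Socs3* lay far apart. At E6.5 the null epiblasts ran from 0 through a median of 3.14 to 4.73 CPM and the WT epiblasts from 0 through 3.39 to 6.97 CPM, with 1 library of each genotype (null 3 and WT 1) at 0. For those 2 libraries a count of 0 allows up to 3 counts, and the groups overlapped throughout. Null 3 and WT 1 had 44825325 and 70922482 counts in total, with 15171 and 19038 genes detected. At E7.5 the 3 null epiblasts held 4.18, 3.31 and 6.21 CPM and the WT epiblasts ran from 4.06 through 9.53 to 14.3 CPM. All 3 null epiblasts at E7.5 lay below 8 of the 9 WT epiblasts, and WT 3 lay within the null range.

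No genotype difference in *Socs3* was called by edgeR on all libraries. Its log2 fold change, null over WT, was -1.65 at E5.5 (SE 0.639, adjusted p 0.999), -0.24 at E6.5 (SE 0.802, adjusted p 0.98) and -0.99 at E7.5 (SE 0.347, adjusted p 0.124). The E5.5 value was -0.76 without WT 1 and -2.19 without WT 2. At E5.5 and E6.5 no gene of the whole table was called (0% of 18690 and 0% of 17095 genes), 467 and 1414 genes had an unadjusted p under 0.05, and DESeq2 called 31 and 37 genes, no member among them. DESeq2 called *Socs3* at E7.5 (log2 fold change -1.001, adjusted p 0.0366), and so did edgeR without WT 3 (-1.09, adjusted p 0.0224). Taken as a single gene in a two-sided exact permutation test of mean log2 CPM, *Socs3* gave p = 0.0667 at E5.5 (4 against 2 libraries, where 0.0667 is the smallest p possible), p = 0.683 at E6.5 and p = 0.0227 at E7.5. Adjusted over the 3 stages these were 0.1, 0.683 and 0.0682. Without null 1 or null 2 the E7.5 difference no longer had a p under 0.05 (0.109 at most). With the visceral endoderm sum as a covariate the E7.5 log2 fold change was -0.56 (adjusted p 0.9997), and with the extraembryonic ectoderm sum -0.43 (adjusted p 1).

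Over time in WT epiblasts the *Socs3* log2 fold change was -1.14 from E5.5 to E6.5 (SE 1.02, adjusted p 0.564) and 1.43 from E6.5 to E7.5 (SE 0.529, adjusted p 0.0532). The first was -0.30 without WT 1 of E5.5 and -1.72 without WT 2. The second was called by DESeq2 (adjusted p 0.0239), with a mean count of at least 50 (0.0476), and without WT 1, WT 2 or WT 3 of E6.5 or WT 3 of E7.5 (0.00271 to 0.0395). Of the 9 E7.5 WT epiblasts 7 lay above all 9 of E6.5. The visceral endoderm sum differed between the same groups, as given for *Socs2*, and its part in the *Socs3* values was not tested. The genes ranked most like *Socs3* over the 35 epiblasts were *Adgrf5* (rho 0.855), which encodes an adhesion receptor, *Stk36* (0.836) and the tropomyosin gene *Tpm4* (0.82). By Pearson's correlation of log2 CPM the highest were others, *Get4* (0.838), *Commd6* (0.814) and *Iqsec2* (0.807), so the genes named depend on the measure.

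**Figure D3:**
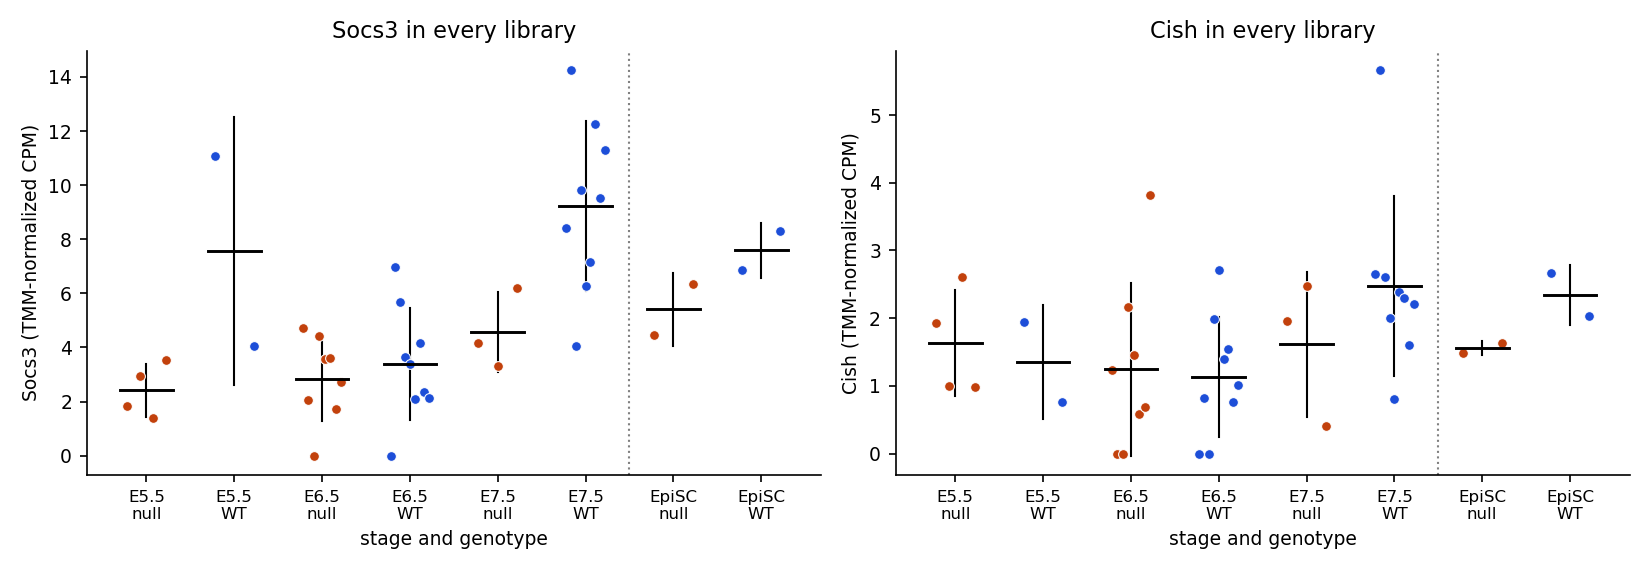
*Socs3* (left) and *Cish* (right) in every library, in TMM-normalized CPM (y axes), by stage and genotype (x axis; null in orange, WT in blue). Horizontal lines are group means and vertical lines the SD; the dotted line separates the EpiSC table. *Socs3* is highest in the E7.5 WT epiblasts, where 8 of 9 lie above all 3 null epiblasts, and *Cish* stays under 6 CPM with overlapping groups in the epiblasts.

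The other cytokine-induced members, *Socs1* and *Cish*, had low counts, at most 180 and 151 in an epiblast library. *Socs1* had group means of 0.786 to 2.03 CPM in the epiblasts, and null 1 of E5.5 and WT 9 of E7.5 were at 0. *Cish* had group means of 1.14 to 2.47 CPM, and 2 null and 2 WT epiblasts of E6.5 were at 0. Its highest value was 5.67 CPM in WT 2 of E7.5, which also had the highest *Socs3*. Neither gene was called in any comparison, and their standard errors were wide: the log2 fold change at E7.5 was -0.70 (SE 0.931) for *Socs1* and -0.59 (SE 0.585) for *Cish*. At E5.5 the *Socs1* values of the 2 WT epiblasts, 2.06 and 2.0 CPM, lay just above the highest null value of 1.98. On the opposite strand, exons of the antisense gene *Gm17041* (479 bases) and of the pseudogene *Gm17040* (261 bases) overlap those of *Cish*, and the strand setting of the counting is not given in the sources used here, so reads of the overlapping genes cannot be told apart.

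*Socs4*, *Socs5*, *Socs6* and *Socs7* had group means that differed little among the 6 epiblast groups. The highest group mean was 1.60 times the lowest for *Socs4* (24.0 to 38.2 CPM), 1.18 times for *Socs5* (8.61 to 10.1), 1.27 times for *Socs6* (40.2 to 50.9) and 1.33 times for *Socs7* (27.3 to 36.2), against 3.48 times for *Socs2* and 3.82 times for *Socs3*. None of the 4 was called in any comparison. An unadjusted p under 0.05 was found 3 times. The log2 fold change of null over WT was 0.33 for *Socs4* at E7.5 (SE 0.118, adjusted p 0.13) and 0.26 for *Socs6* at E6.5 (SE 0.091, adjusted p 0.442), and that of *Socs6* from E6.5 to E7.5 in WT was 0.25 (SE 0.093, adjusted p 0.0522). The lowest *Socs4* value of the series was 10.7 CPM, in null 3 of E6.5, where the other 7 null epiblasts held 24.9 to 41.1 CPM. *Socs7* lies on chromosome 11, as *Socs3* and *Stat3* do.

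Neither PIM kinase among the members was called in any comparison. *Pim3* group means lay between 31.0 and 39.5 CPM in the epiblasts, with single libraries from 15.6 to 62.1 CPM, and its log2 fold change between genotypes was -0.12 at E5.5, 0.17 at E6.5 and -0.19 at E7.5, none of them called. *Pim1* ran from 30.1 through a median of 52.1 to 102 CPM in E6.5 null and from 26.6 through 33.3 to 91.7 CPM in E6.5 WT epiblasts. Its log2 fold change at E6.5 was 0.47 (SE 0.28, adjusted p 0.736). The highest values came from null 2, WT 3 and null 1 of E6.5, at 102, 91.7 and 91.6 CPM, and these are among the 6 E6.5 libraries with over 40000000 counts (null 1 to 3 and WT 1 to 3), in which 15171 to 19380 genes were detected against at least 20338 in the other 11. Null 1 is also the library with the high extraembryonic ectoderm sum and WT 3 the one with the high visceral endoderm sum. The part of depth and of these tissues in the *Pim1* values of single libraries was not tested. *Pim1* was not called between genotypes at E6.5 with depth groups or either marker sum as a term. At E7.5 *Pim1* held 20.2, 20.5 and 29.0 CPM in the 3 null epiblasts and 16.7 to 46.1 CPM in WT, and in WT its log2 fold change from E6.5 was -0.48 (SE 0.248, adjusted p 0.169). From E6.5 WT to E7.5 null epiblasts the log2 fold change of *Pim1* was -0.89 (SE 0.344, adjusted p 0.444), and -0.67 without WT 3 of E6.5, neither of them called. The closest ranks to *Pim1* were those of *Irf2bp2* (rho 0.771), the ferritin light chain gene *Ftl1* (0.736) and *Gm10116* (0.711). Without null 1 of E5.5 they were *Ube2q2* (0.763), *Prr14l* (0.762) and *Irf2bp2* (0.757). For *Pim3* the highest were *Dcaf12* (0.596), *Agap3* (0.594) and *Efs* (0.592). For *Cish* the highest were *Gm26232*, *Sec13* (both 0.681) and *Fam174a* (0.667), and without null 1 of E5.5 *Ankrd54* (0.676) took the place of *Sec13*. By Pearson's correlation of log2 CPM other genes came first: *Tapbp* (0.719) for *Pim1*, *Lgals1* (0.666) for *Pim3* and *Atg4a* (0.856) for *Cish*. *Pim1* exons overlap the antisense gene *Gm26885* over 488 bases.

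**Figure D4:**
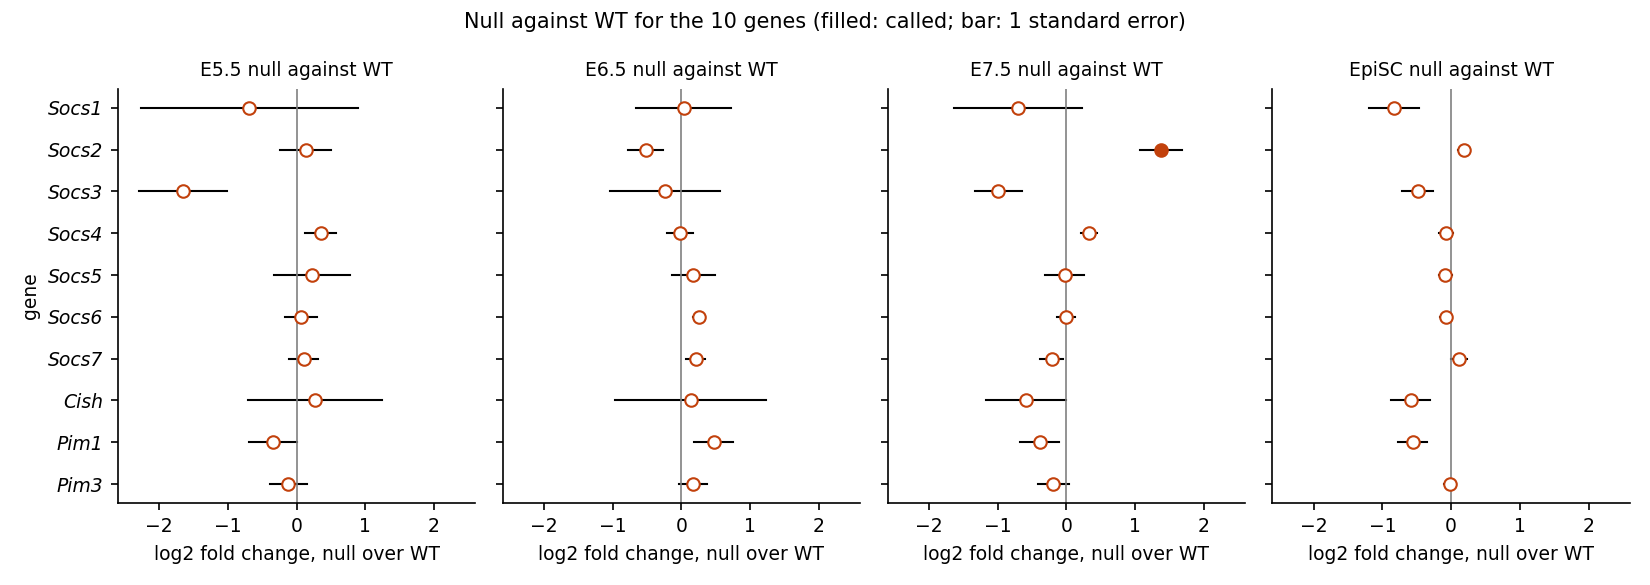
Log2 fold change of null over WT (x axis) for each of the 10 genes (y axis) at E5.5, E6.5, E7.5 and in EpiSCs; bars are 1 standard error, filled points were called. *Socs2* at E7.5 (1.38) is the 1 filled point, and *Socs3* lies to the left of 0 in all 4 panels.

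*Pim2*, the remaining PIM kinase, was followed as a gene of the pathway. It ran from 56.0 through a median of 81.0 to 404 CPM in E7.5 WT epiblasts, with WT 3 the highest, and from 283 to 448 CPM in the 3 null epiblasts. Its log2 fold change between genotypes at E7.5 was 1.56 (SE 0.534, adjusted p 0.136), and without WT 3 it was 2.0 (adjusted p 0.00179). With the visceral endoderm or the extraembryonic ectoderm sum as a covariate it was -0.43 or -0.21. *Pim2* fell from E6.5 to E7.5 in WT by 1.35 on the log2 scale (adjusted p 0.00576). Its change in genotype effect between E6.5 and E7.5 was called at 2.1 (SE 0.485, adjusted p 0.0448), a call lost in 21 of 29 fits that left out 1 library. The part of the marker sums in this fall and in the interaction was not tested.

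Per exon length, *Socs1* and *Cish* were the lowest members in all 8 groups, and *Pim3* had the highest mean in 7 of them, with *Pim1* above it in E6.5 null epiblasts. *Pim3* had a group mean of 12.8 to 20.4 RPKM over the 8 groups and *Pim1* 5.88 to 17.5 RPKM, and both had ranges that overlapped at E5.5, E6.5 and in the E7.5 WT epiblasts. The group means of *Pim1* were exceeded by *Socs2* in E7.5 null epiblasts and in null EpiSC lines, and by *Socs4* in EpiSC lines of both genotypes. Group means were 2.09 to 7.26 RPKM for *Socs2*, 3.48 to 8.71 for *Socs4*, 3.54 to 5.32 for *Socs6* and 3.76 to 5.74 for *Socs7*, and their order changed between groups. *Socs5* had group means of 1.34 to 3.99 RPKM and *Socs3* of 0.837 to 3.19 RPKM. *Socs1* (0.27 to 0.698) and *Cish* (0.177 to 0.385) came last, with overlapping ranges in 5 of the 6 epiblast groups. In the E7.5 WT epiblasts *Socs3* (3.19 ± 1.09 RPKM, n = 9) and *Socs2* (2.84 ± 1.45) overlapped, while in the E7.5 null epiblasts *Socs2* (7.26 ± 0.588, n = 3) was well above *Socs3* (1.58 ± 0.515). *Pim2* exceeded all 10 members, at 26.5 to 195 RPKM.

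**Figure D5:**
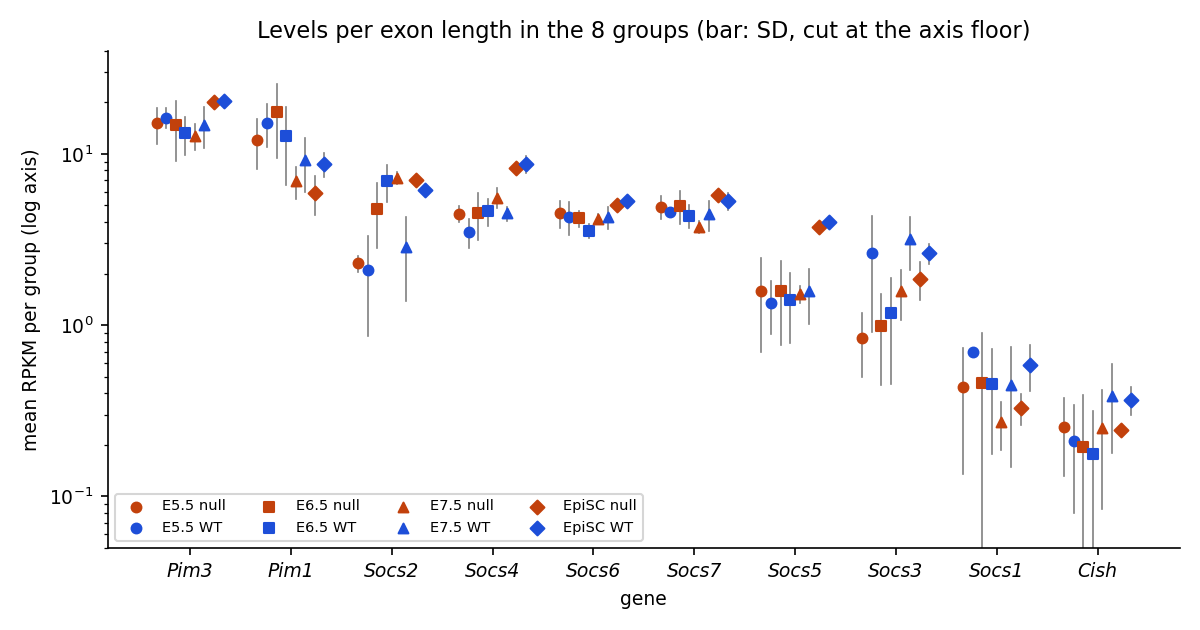
Mean level per exon length (RPKM, log axis) of the 10 genes (x axis) in the 8 groups; null in orange and WT in blue, circles E5.5, squares E6.5, triangles E7.5, diamonds EpiSC. Bars are the SD over libraries and end at the bottom of the axis where mean minus SD falls below it. The group means of *Pim3* lie between 12.8 and 20.4 RPKM, and those of *Cish* between 0.177 and 0.385.

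In EpiSCs no member was called between null and WT lines, beside 0.106% of 20736 genes, but with 2 lines against 2 the test rests on little. *Pim1* came nearest, at 16.2 and 23.4 CPM in null lines 2 and 6 and 25.9 and 32.5 CPM in WT lines 8 and 13 (log2 fold change -0.56, SE 0.205, adjusted p 0.501). *Socs3* held 4.45 and 6.36 CPM in null and 8.32 and 6.87 CPM in WT lines (-0.49, SE 0.231, adjusted p 0.624). *Socs1* differed by -0.83 (SE 0.36, adjusted p 0.571) and *Cish* by -0.59 (SE 0.282, adjusted p 0.629). *Socs2* held 65.0 and 68.6 CPM in null and 60.8 and 57.1 CPM in WT lines (0.18, SE 0.0781, adjusted p 0.571). Leaving out 1 line moved the values to between -1.11 and -0.49 for *Socs1*, -0.77 and -0.38 for *Cish*, -0.77 and -0.24 for *Socs3* and -0.85 and -0.31 for *Pim1*. The value nearest to 0 came without WT line 8 for *Socs1*, WT line 13 for *Cish* and null line 2 for *Socs3* and *Pim1*. The 2 genotypes did not overlap in 6 members, 5 lower in null (*Socs1*, *Socs3*, *Socs5*, *Cish* and *Pim1*) and *Socs2* higher, beside 39.3% of all genes without overlap between lines. At E7.5 the same count was 1 of 10, *Socs2*, with null 3 and WT 3 both at 62.9 CPM, beside 3.81% of all genes. EpiSC levels were normalized apart from those of the epiblasts and are set beside them without a test. The 12 visceral endoderm genes summed to 8.15 to 14.4 CPM in the EpiSC lines.

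When the 3 stages were fitted together, the genotype effect common to them called none of the 10 members, beside 0.00829% of 24126 genes (2 genes, *Stat3* among them). The *Socs3* value was -0.71 (SE 0.445, adjusted p 0.682) and the *Socs2* value 0.20 (SE 0.231, adjusted p 0.891). The 10 members had a median log2 fold change between genotypes of 0.08 at E5.5, 0.15 at E6.5, -0.20 at E7.5 and -0.08 in EpiSCs, and the medians of all genes tested were within 0.02 of 0.

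The surrounding pathway was followed in 74 genes: ligands of gp130 receptors, cytokine receptors, JAK kinases, STAT factors, other brakes such as the phosphatases and PIAS proteins, ubiquitin ligase partners of the SOCS box, *Pim2* with PIM substrates, and STAT3 targets outside the family. Between genotypes none of the tested ones was called at E5.5 (63 tested) or E6.5 (64). DESeq2 called none at E5.5 and 2 at E6.5. At E7.5 2 of 66 were called, beside 1.17% of all genes, both lower in null: *Stat3* (-3.31, SE 0.439, adjusted p 0.00808) and *Jak2*, the kinase that SOCS proteins inhibit (-1.70, SE 0.343, adjusted p 0.0324). Scaled to library totals, *Jak2* held 3.04 to 3.2 CPM in null and 4.05 to 17.2 CPM in WT at E7.5. The *Jak2* call was lost in 8 of 12 fits that left out 1 library, and its value was -0.41 with the visceral endoderm sum (adjusted p 0.9997) and -0.44 with the extraembryonic ectoderm sum (adjusted p 1) as a covariate. The count of pathway genes called at E7.5 was 10 with DESeq2, 12 without WT 3 and 0 with either covariate. The share of all genes called under these settings is not given beside them, so they are not read as a result on the pathway. In EpiSCs 1 of 66 was called, beside 0.106% of all genes, *Stat3* (-2.62, SE 0.171, adjusted p 0.00706). The median over the tested pathway genes was -0.13 at E7.5 and -0.08 in EpiSCs.

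Between stages, in WT epiblasts from E5.5 to E6.5, 1 of 67 pathway genes was called higher and 5 lower, beside 5.15% of all genes. *Ccnd1*, a G1 cyclin, rose by 1.70 (SE 0.267, adjusted p 0.0028), while *Jak2* changed by -2.61 (SE 0.444, adjusted p 0.00381) and *Jak1* by -1.17 (SE 0.209, adjusted p 0.00505). *Stat3* itself was among the 5 called lower, at -1.74 (SE 0.415, adjusted p 0.0198). Without WT 1 of E5.5, which leaves 1 library in that group, the calls of *Ccnd1* (1.29), *Jak1* (-0.94) and *Stat3* (-1.57) were lost. That of *Stat3* was also lost without WT 2 of E5.5. From E6.5 to E7.5 7 of 65 were called higher and 2 lower, beside 8.83% of all genes. *Il6st*, which encodes gp130, rose by 1.41 (SE 0.161, adjusted p 7.34e-06) and *Jak2* by 1.69 (SE 0.299, adjusted p 0.000327), and *Myc* changed by -1.51 (SE 0.227, adjusted p 9.8e-05). *Bcl3*, called lower at E6.5 than at E5.5, and *Gbx2*, called higher at E7.5 than at E6.5, had E6.5 WT libraries with a count of 0, and no fold is given for them. The change in genotype effect between E6.5 and E7.5 was called for *Jak2* (-3.72, SE 0.722, adjusted p 0.0199) and *Pim2* among 68 tested, beside 0.443% of all genes. The E6.5 median *Jak2* level on library totals was 9.69 CPM in null and 2.91 in WT. The visceral endoderm sum differed between the same stages, as given for *Socs2*, and had an E6.5 median of 989 CPM in null against 202 in WT. Its part in these stage changes and in the interaction was not tested.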

How the data were processed

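Bulk RNA-seq of 35 single epiblasts and 4 EpiSC lines was analysed from 2 tables of counts per gene. The authors deposited raw counts, made by trimming with Trim Galore, alignment to GRCm38 with HISAT2 and counting with StringTie; epiblast libraries came from a stranded low-input kit, and the annotation version and the strand setting of the counting are not given in the sources used here. Groups came from the sample labels, which do not name shared litters. The main test was the quasi-likelihood test of edgeR (version 4.0.16, run in R version 4.3.3, with TMM scaling, filterByExpr with a minimum count of 10 and a total of 15, robust fitting, two-sided, Benjamini-Hochberg over all genes tested), within the groups compared. The standard error is the log2 fold change over the root of F. Log2 CPM used a prior count of 2. Exon lengths and positions came from GENCODE vM21, which held 47224 of 47643 gene identifiers. *Socs3* was also tested by exact permutation. Alternatives were DESeq2 1.42.0, its size factors (RLE), no filter, a mean count of at least 50, no genes over 1% of counts, all libraries in 1 fit, replicate block, marker sums (log2 of CPM plus 1) as covariates, depth groups and leaving out each library. Fits were tested on simulated data.

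The 10 members, the lists and the comparisons were chosen with earlier results of these data known. All members are named; of the pathway lists, at most 4 genes called per comparison by smallest p, besides *Stat3* and *Pim2*; of like patterns, the 3 highest. Leaving out 4 libraries that stand apart in marker genes, and the deep E6.5 libraries alone, were chosen after seeing the data. Separate litters are not stated, so p-values measure the spread between these libraries. Plots used matplotlib (version 3.10.9) under Python (version 3.11.15).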

Additional observations from a re-analysis of the deposited data

Results flagged for a closer look

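Each member was looked at in each epiblast group of 4 to 10 libraries, 40 sets of values in all. A library far from the others of its group by Dixon's criterion was found 8 times. For independent, normally distributed values the criterion flags about 1 in 20. These 40 sets share libraries, and counts of 0 take their place from the prior count, so the 8 are not weighed against that rate. *Socs2* in WT 3 of E7.5 was at 5.98 log2 CPM, where the next WT library was at 4.84. *Socs3* was at a count of 0 in null 3 and in WT 1 of E6.5, shown as -4.19 log2 CPM with the prior count, and the next libraries were at 0.835 and 1.10. *Socs1* was at 0 (-4.19 log2 CPM) in null 1 of E5.5 and in WT 9 of E7.5, and at -1.91 log2 CPM in WT 7 of E6.5. *Socs4* in null 3 of E6.5 was at 3.43 log2 CPM against 4.64 in the next library, and *Socs7* in null 1 of E6.5 was at 5.77 log2 CPM against 5.32.

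The genotype effect on *Socs2* differed between E6.5 and E7.5, by 1.88 on the log2 scale in the interaction term (edgeR, adjusted p 0.0441). This call was lost in 19 of 29 fits that left out 1 library. The interaction was not fitted with the marker sums as covariates.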

How the results depend on the processing

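At E5.5, E6.5, in EpiSCs, for E7.5 null against E6.5 WT and for the effect common to the stages, the count of members called was 0 under every alternative run. The share of all genes called under each alternative is not given, so the counts in this section describe their dependence on the processing only. At E7.5 between genotypes it was 1, and 2 with DESeq2 and without the 4 libraries that stand apart, and 0 with no filter on low counts, all 35 libraries in 1 fit, the replicate block and either marker sum as a covariate. Leaving out 1 library gave 0 to 2. From E5.5 to E6.5 in WT it was 0 with the replicate block and 0 to 1 when 1 library was left out. From E6.5 to E7.5 in WT it was 2 with DESeq2, a mean count of at least 50 and without the 4 libraries, and 1 to 2 when 1 library was left out. For the interaction it was 0 with no filter and 0 to 1 when 1 library was left out.

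Signs turned in these values. *Socs3* at E6.5 was 0.12 in libraries under 40000000 counts. *Socs2* in E7.5 null against E6.5 WT was -0.0107 without the 4 libraries and -0.0107 to 0.13 when 1 library was left out, and at E5.5 between genotypes -0.37 to 0.90. *Pim2* at E7.5 was 1.56 on all libraries and -0.43 with the visceral endoderm and -0.21 with the extraembryonic ectoderm sum, and 0.27 without the 4 libraries for the effect common to the stages (-0.21 to 0.062 when 1 library was left out), and -0.18 to 0.48 in EpiSCs. *Stat3* from E6.5 to E7.5 in WT was -0.14 to 0.25. In the permutation test the *Socs3* difference was -0.91 to 0.49 at E6.5 and -1.21 to -0.76 at E7.5 when 1 library was left out. The other 65 values of members gave 1571 alternatives, of which 119 changed sign (the largest such value was 0.699 in size) and 0 were called. The count of pathway genes called moved by over 1.5 times with DESeq2 at E6.5 (0 to 2), E7.5 (2 to 10), in EpiSCs (1 to 2), from E5.5 to E6.5 in WT (6 to 14), for E7.5 null against E6.5 WT (1 to 2) and for the interaction (2 to 5). Without the 4 libraries it was 12 at E7.5, 14 in each WT stage comparison, 2 for E7.5 null against E6.5 WT and 7 for the interaction. With no filter it was 2 in EpiSCs and 1 for the interaction, with all 35 libraries in 1 fit 1 at E7.5, with the replicate block 0 at E7.5 and 1 from E5.5 to E6.5, and with either covariate 0 at E7.5. The block also ended the calls of *Socs2* (adjusted p 0.0664), *Ccnd1* (0.0711), *Jak1* (0.277) and *Jak2* (0.15) from E5.5 to E6.5, where *Socs3* was -3.78. The cause of these changes was not tested, beyond the fewer libraries or genes that an alternative has by construction.

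Replicate numbers were not taken to pair the libraries, as not every same-numbered pair of null and WT libraries had deviations with r over 0.1. At E7.5 r was -0.271 to 0.0589 over 3 pairs, at E6.5 -0.173 to 0.349 over 8 pairs (5 over 0.1) and at E5.5 -0.00171 to 0.311 over 2 pairs (1 over 0.1). Same-numbered libraries may still share other features. At E6.5 null 1 to 3 and WT 1 to 3 were those with over 40000000 counts. Whether numbers mark a shared batch was not tested. The block gave *Socs2* a log2 fold change of 1.26 at E7.5 (adjusted p 0.899). The EpiSC lines share no numbers. A count of 0 allows up to 3 counts for *Socs1*, *Socs3* and *Cish* in the libraries at 0. The libraries at 0 for *Socs3*, null 3 and WT 1 of E6.5, had 44825325 and 70922482 counts. In them 15171 and 19038 genes were detected, against at least 20338 in the E6.5 libraries under 40000000 counts. What led to these counts of 0 was not tested.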
